A study of Mus musculus with 6 samples.

Results

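Krüppel-like factors are transcription factors that bind GC-rich and CACCC-type elements through a cluster of zinc fingers at the carboxyl end, and each member's amino-terminal part recruits its own activators or repressors. In endothelium, KLF2 and KLF4 are induced by laminar shear through the kinase ERK5 and the MEF2 factors and are known for restraining inflammation and clotting. KLF6 is induced by injury, KLF10 and KLF11 by TGF-beta, and KLF9 and KLF15 by glucocorticoids. KLF15 is known in the heart for steering the use of fatty acids and branched-chain amino acids. The genes described here were the 10 named members Klf2, Klf3, Klf4, Klf6, Klf7, Klf9, Klf10, Klf11, Klf13 and Klf15, taken by symbol from the 37620 genes of the count table.

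The tissue was the heart apex of C57/BL6J wild-type mice, taken when 30 min of ischaemia had been followed by 120 min of reperfusion, and its mRNA was sequenced. The dexmedetomidine group (3 samples) received 10 µg/kg dexmedetomidine, a sedative that activates alpha-2 adrenergic receptors, 20 min ahead of surgery, and the solvent of the alpha-2 blocker yohimbine 30 min ahead of dexmedetomidine. The vehicle group (3 samples) had the vehicles of both agents ahead of the same surgery, with no timing in the labels. Infusions went into a tail vein. With no uninjured or alpha-2 blocked hearts among the samples, each value below is a level in reperfused tissue. Whether every sample came from its own animal is not stated, and if not, the p-values below reflect a spread that may be technical.

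Gene counts summed to between 42691399 and 48636790 in the dexmedetomidine libraries and between 50274670 and 56615882 in the vehicle libraries, and the 10 members held 424 to 13361 reads each in every library. Markers of heart muscle were abundant, with 8 cardiomyocyte genes summing to 40233 to 44264 CPM (counts per 1000000) in dexmedetomidine and 44637 to 52868 CPM in vehicle libraries. Transcripts of the mitochondrial genome made up 27.1%, 36.9% and 38.2% of counts in dexmedetomidine replicates 1, 2 and 3, against 25.2%, 22.01% and 23.3% in the vehicle replicates. Vehicle replicate 2 stood apart: 13 immediate early genes summed to 5025 CPM in it, against 1061 to 1492 CPM in dexmedetomidine libraries and 1187 and 1769.5 CPM in the other vehicle libraries. Fold changes also followed base composition. Their median was 0.47 (log2) in the lowest of 5 equal classes of GC content and -0.30 in the highest, so each Klf value is also given after removing trends with GC content and length.

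Promoter windows of 4 members are shown because these 4 had the widest spread between libraries and because their known inputs act on promoter and enhancer DNA. The sequences are those of RefSeq on GRCm38.p6, which is not the build of the counts, and run 5′ to 3′ on the gene's strand from 250 bases before to 50 bases after the start site. Capitals mark matches to CACGTG (the E-box, bound by clock factors), TGACG (the core of the cAMP response element) and CTAAATTTA (a form of the MEF2 site). The windows lie on the plus strand at chr8:72318812-72319111 for Klf2, on the minus strand at chr4:55532426-55532725 for Klf4, on the plus strand at chr19:23140976-23141275 for Klf9 and on the plus strand at chr6:90462326-90462625 for Klf15.
Klf2: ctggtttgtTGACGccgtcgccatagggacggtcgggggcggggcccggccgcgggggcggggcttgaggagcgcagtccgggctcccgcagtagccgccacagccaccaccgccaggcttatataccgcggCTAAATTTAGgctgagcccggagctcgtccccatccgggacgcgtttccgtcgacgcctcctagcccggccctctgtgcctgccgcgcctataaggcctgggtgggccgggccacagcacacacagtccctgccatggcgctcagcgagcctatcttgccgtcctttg
Klf4: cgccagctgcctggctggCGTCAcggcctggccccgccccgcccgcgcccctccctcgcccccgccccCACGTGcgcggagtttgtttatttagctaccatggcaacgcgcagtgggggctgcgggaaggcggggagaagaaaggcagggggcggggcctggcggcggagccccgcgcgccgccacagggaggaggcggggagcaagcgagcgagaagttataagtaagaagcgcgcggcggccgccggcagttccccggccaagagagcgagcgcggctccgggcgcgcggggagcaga
Klf9: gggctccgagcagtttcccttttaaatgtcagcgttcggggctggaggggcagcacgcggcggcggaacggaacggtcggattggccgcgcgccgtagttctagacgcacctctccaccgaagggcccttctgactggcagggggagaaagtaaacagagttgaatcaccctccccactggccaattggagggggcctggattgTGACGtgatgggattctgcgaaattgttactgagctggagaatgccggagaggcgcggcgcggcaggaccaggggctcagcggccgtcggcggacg
Klf15: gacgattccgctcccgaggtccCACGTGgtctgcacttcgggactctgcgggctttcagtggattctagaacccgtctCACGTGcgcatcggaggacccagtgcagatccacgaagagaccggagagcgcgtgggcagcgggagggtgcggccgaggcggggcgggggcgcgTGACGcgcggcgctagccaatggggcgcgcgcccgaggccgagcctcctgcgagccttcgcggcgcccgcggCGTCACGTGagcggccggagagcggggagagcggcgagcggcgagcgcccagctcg

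The Klf15 window held 3 E-boxes and the Klf4 window 1, while 7.15% of 32851 promoters of this length held any. Klf6 and Klf11 each held 1 E-box as well. TGACG, searched on both strands like every motif, was in the windows of Klf2, Klf3, Klf4, Klf9, Klf13 and Klf15 and in 20.8% of all promoters. In Klf15 the last E-box shares bases with a match to TGACG on the other strand. CTAAATTTA, in 0.204% of promoters, was added to the search because it was seen in the Klf2 window, so its presence there was chosen and is not a finding. AGAACA (the core of the glucocorticoid receptor site, in 19% of promoters), CCATATTAG (a serum response element, in 0.103%), CTATTTATA (a MEF2 site, in 0.429%) and CCACACCC (a KLF site, in 3.56%) were in none of the windows searched. Shares are over all promoters of this length, not matched for GC content, which was 58.3% to 77.7% in the windows searched. These letters describe 300 bases each and say nothing of binding. Windows for 9 of the 10 members were in the table, Klf10 being the other one.

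Klf9 was the member with the largest difference, 1.71-fold higher after dexmedetomidine, and the only one whose groups did not overlap in CPM. The mean of Klf2 was 1.42-fold lower and that of Klf4 1.32-fold lower after dexmedetomidine, while Klf6, Klf10, Klf11 and Klf15 differed by less than their errors. In edgeR's quasi-likelihood test 0 of the 10 passed an adjusted p of 0.05, with adjusted p from 0.176 to 0.776, and 0% of 14738 genes passed. At an unadjusted p under 0.05 stood 1 of the 10 (Klf9), against 21.5% of all genes tested. DESeq2 called 1 of 10, Klf9, where it called 9.43% of genes, and limma-voom with quality weights called 1 of 10, again Klf9, where it called 14% of genes. The groups did not overlap for 1 of the 10, against 27.6% of all genes, a share below that of the whole table. That count was 0 of 10 with nuclear genes only (27.7% of all genes), at a mean CPM of at least 5 (32.5%) and with the correction (18.2%). With 1 library left out it was 3, 2 and 2 of 10 without dexmedetomidine replicates 1, 2 and 3 (45.2%, 34.8% and 32.4% of all genes) and 3, 4 and 3 of 10 without vehicle replicates 1, 2 and 3 (35.7%, 32.9% and 45.8%). With the replicate number as a block edgeR called 1 of 10, Klf9, among 4.32% of genes, and with block and correction together it called 0 of 10 (Klf9 adjusted p = 0.060). Fold changes were above 0 for 5 members and below 0 for 5, with a median of 0.0087 on the log2 scale, beside 0.0032 over all genes.

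**Figure D1:**
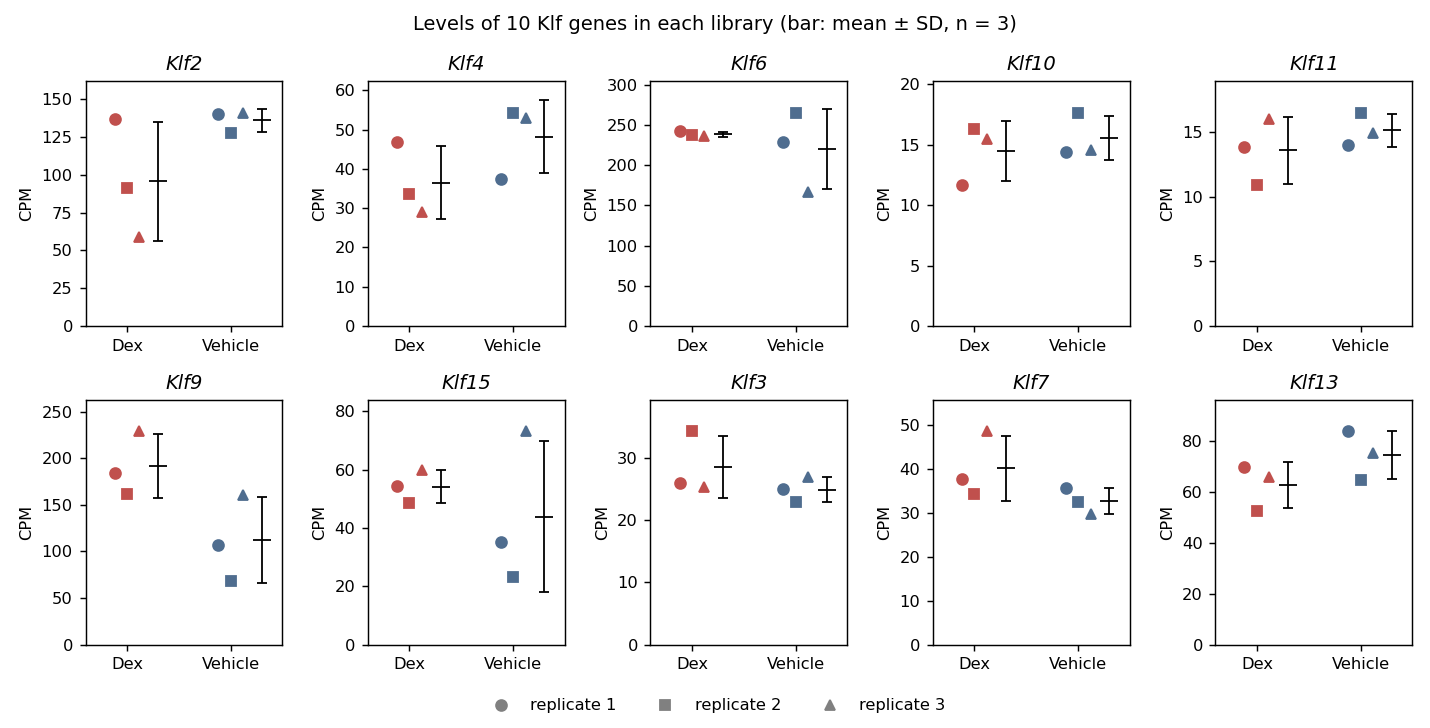
CPM of each Klf gene (y axis, starting at 0) in the 3 dexmedetomidine libraries (red, left) and the 3 vehicle libraries (blue, right), with symbols for replicate numbers and black bars for mean ± SD. The groups stand apart for Klf9 alone, Klf2 spreads from 59.0 to 137 CPM within the dexmedetomidine group, and Klf15 from 23.3 to 73.1 CPM within the vehicle group.

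Klf2 (ENSMUSG00000055148), the shear-induced endothelial factor, measured 137, 91.2 and 59.0 CPM in dexmedetomidine replicates 1, 2 and 3, against 140.01, 127 and 141 CPM in the vehicle replicates. Vehicle libraries were close together, whereas the dexmedetomidine libraries ran from the vehicle level down to well under it, so the groups overlapped. Means were 95.7 ± 39.2 CPM after dexmedetomidine and 136 ± 7.56 CPM after vehicle (SD, n = 3 each), a log2 fold change of -0.51 (SE 0.26, edgeR adjusted p = 0.305). The 2 libraries with low Klf2 were those with 36.9% and 38.2% of mitochondrial counts. With nuclear genes only the log2 fold change was -0.53 (SE 0.26, edgeR adjusted p = 0.277). Any other link of that share to Klf2 was not tested. Klf2 transcripts have a GC content of 61.6%, in the highest of the 5 classes, and with the correction for GC content and length the log2 fold change was -0.069 (SE 0.20). Leaving out dexmedetomidine replicate 1 gave -0.86, and leaving out dexmedetomidine replicate 3 gave -0.25.

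Endothelial markers, read beside Klf2, summed to 1074 to 1143 CPM in the dexmedetomidine and 1067 to 1196 CPM in the vehicle libraries over 8 of 8 genes tested, with 0 of them at 0 throughout. Their mean level was 6.69 ± 0.032 log2 CPM after dexmedetomidine and 6.70 ± 0.129 log2 CPM after vehicle (SD, n = 3 each), so the groups overlapped there. In pieces of whole tissue, fewer cells of a type and less RNA per cell cannot be told apart.

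Klf4 (ENSMUSG00000003032), the other shear-responsive member, which is also induced in monocytes, stood at 46.8, 33.6 and 28.9 CPM in dexmedetomidine replicates 1, 2 and 3, against 37.5, 54.2 and 52.9 CPM in the vehicle replicates. Like Klf2 it was lowest in dexmedetomidine replicate 3 and next lowest in replicate 2, but vehicle replicate 1 lay below dexmedetomidine replicate 1. The log2 fold change was -0.40 (SE 0.21, edgeR adjusted p = 0.290), and -0.17 (SE 0.18) with the correction. It was -0.63 without dexmedetomidine replicate 1, -0.56 without vehicle replicate 1 and -0.26 without dexmedetomidine replicate 3. Markers of macrophages and monocytes summed to 223 to 353 CPM after dexmedetomidine and 261 to 291 CPM after vehicle (8 of 8 tested, 0 of them at 0 throughout).

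Klf6 (ENSMUSG00000000078), an injury-induced factor, was the most even member after dexmedetomidine, at 242, 238 and 236 CPM, against 228, 265 and 167 CPM in the vehicle libraries. Vehicle libraries lay on either side of the dexmedetomidine libraries. Its log2 fold change was 0.12 (SE 0.16, edgeR adjusted p = 0.719) and took the other sign, -0.28 (SE 0.20), with the correction, Klf6 being in the class of lowest GC content at 42.4%. Without vehicle replicate 3 it was -0.046.

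Klf10 (ENSMUSG00000037465) and Klf11 (ENSMUSG00000020653), repressors known as TGF-beta-inducible early genes, were, with Klf7, the members of lowest level per length. Klf10 was at 11.7, 16.3 and 15.4 CPM in dexmedetomidine replicates 1, 2 and 3, against 14.4, 17.6 and 14.6 CPM in the vehicle replicates. Klf11 was at 13.8, 10.9 and 16.0 CPM in dexmedetomidine replicates, against 14.0, 16.5 and 14.9 CPM in vehicle replicates. The groups overlapped for both genes, each with its highest value in vehicle replicate 2. Log2 fold changes were -0.10 (SE 0.17) for Klf10 and -0.16 (SE 0.17) for Klf11, with edgeR adjusted p of 0.776 and 0.635. With the correction for GC content and length they were -0.16 (SE 0.15) for Klf10 and -0.12 (SE 0.17) for Klf11. The sign of Klf10 depended on the libraries, at 0.033 without dexmedetomidine replicate 1 and -0.20 without dexmedetomidine replicate 2.

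Klf9 (ENSMUSG00000033863), which glucocorticoids and thyroid hormone induce and which can repress transcription, measured 184, 162 and 229 CPM in dexmedetomidine replicates 1, 2 and 3, against 107, 68.4 and 161 CPM in the vehicle replicates. The groups did not overlap, but dexmedetomidine replicate 2 and vehicle replicate 3 lay only 1.01 CPM apart. Means were 191 ± 34.0 CPM after dexmedetomidine and 112 ± 46.5 CPM after vehicle (SD, n = 3 each). The log2 fold change was 0.77 (SE 0.29), with an edgeR adjusted p of 0.176, a DESeq2 adjusted p of 0.0364 and a limma-voom adjusted p of 0.0350, and all 15 alternatives gave adjusted p between 0.0189 and 0.479. With the correction for GC content and length the log2 fold change was 0.74 (SE 0.29), and in the corrected levels vehicle replicate 3, at 166 CPM, lay above dexmedetomidine replicate 2, at 157 CPM. Leaving out vehicle replicate 2 gave 0.51 and leaving out vehicle replicate 3 gave 1.12 (edgeR adjusted p = 0.0189, in a fit that called 8.31% of genes).

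Klf15 (ENSMUSG00000030087), the metabolic regulator of heart and muscle, measured 54.3, 48.4 and 59.9 CPM in dexmedetomidine replicates 1, 2 and 3, against 35.3, 23.3 and 73.1 CPM in vehicle libraries 1, 2 and 3. The dexmedetomidine libraries were within 1.24-fold of each other and the vehicle libraries spanned 3.14-fold, with vehicle replicates 1 and 2 under and replicate 3 over every dexmedetomidine library. The log2 fold change was 0.30 (SE 0.36, edgeR adjusted p = 0.668) and 0.54 (SE 0.41) with the correction. Single vehicle libraries decided the value. Without vehicle replicate 2 it was -0.0012, and without vehicle replicate 3 it was 0.89 (edgeR adjusted p = 0.0266, where 8.31% of genes were called), in a range of adjusted p of 0.0266 to 0.999 over all alternatives.

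**Figure D2:**
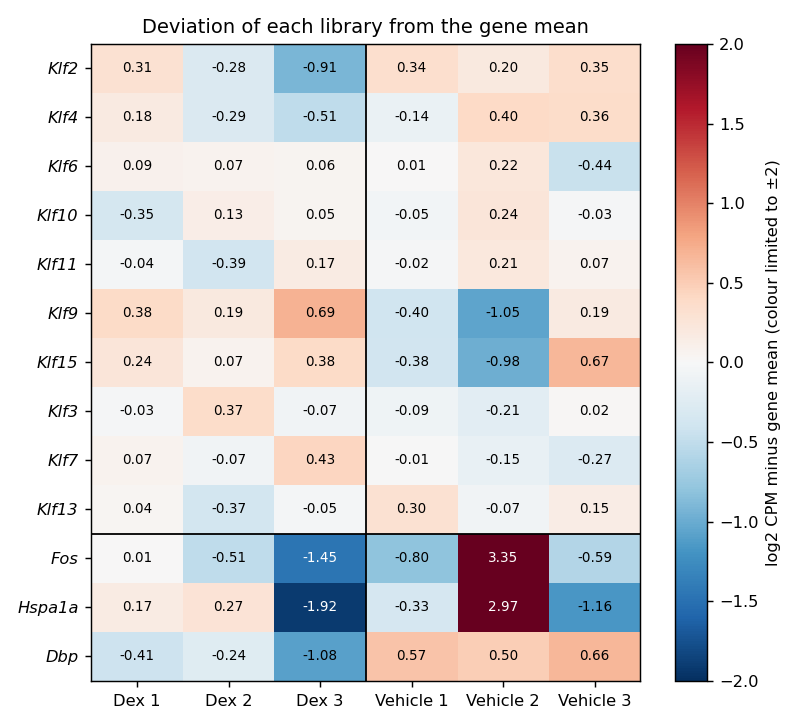
Log2 CPM of each library minus the gene's mean over the 6 libraries, for the 10 Klf genes and, under the line, Fos, Hspa1a and Dbp. Klf9 and Klf15 are lowest in vehicle replicate 2 (-1.05 and -0.98), where Fos and Hspa1a are highest (3.35 and 2.97), and Klf2 is lowest in dexmedetomidine replicate 3 (-0.91).

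Klf9 and Klf15 shared their low libraries, vehicle replicate 2 followed by vehicle replicate 1, and parted in vehicle replicate 3, the highest of all for Klf15 and the third lowest for Klf9. Vehicle replicate 2 was the highest library for 4 of the 10 members (Klf4, Klf6, Klf10 and Klf11) and the lowest for 3 (Klf3, Klf9 and Klf15), where it was highest for 26.1% and lowest for 27.1% of all genes. In that library Fos stood at 608 CPM, against 60.1, 42.0 and 21.8 CPM in dexmedetomidine replicates 1, 2 and 3 and 34.3 and 39.9 CPM in the other vehicle libraries. Hspa1a, an inducible chaperone gene with a near-identical copy, was at 767 CPM there, between 25.9 and 118 CPM in dexmedetomidine libraries and at 77.6 and 43.7 CPM in the other vehicle libraries.

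Klf3 (ENSMUSG00000029178), a repressor that works through CtBP, was at 25.9, 34.2 and 25.3 CPM in dexmedetomidine replicates 1, 2 and 3, against 24.9, 22.8 and 26.9 CPM in the vehicle replicates. Klf7 (ENSMUSG00000025959), known for roles in neurons and fat cells, was at 37.7, 34.3 and 48.6 CPM in dexmedetomidine and 35.8, 32.5 and 29.8 CPM in vehicle replicates. Klf13 (ENSMUSG00000052040), a partner of GATA factors in heart development, was at 69.9, 52.6 and 65.9 CPM in dexmedetomidine and 83.8, 64.9 and 75.3 CPM in vehicle replicates. In each of these genes the groups overlapped. Log2 fold changes were 0.19 (SE 0.15) for Klf3, 0.30 (SE 0.15) for Klf7 and -0.25 (SE 0.15) for Klf13, with edgeR adjusted p of 0.499, 0.296 and 0.356. With the correction they were 0.084, 0.065 and -0.044, each within its SE of 0. The range with 1 library left out was 0.040 to 0.27 for Klf3, 0.14 to 0.40 for Klf7 and -0.34 to -0.14 for Klf13. Klf3, Klf7 and Klf13 overlap genes on the other strand in GENCODE M21, and whether counting used strand is not given in the sources used here.

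**Figure D3:**
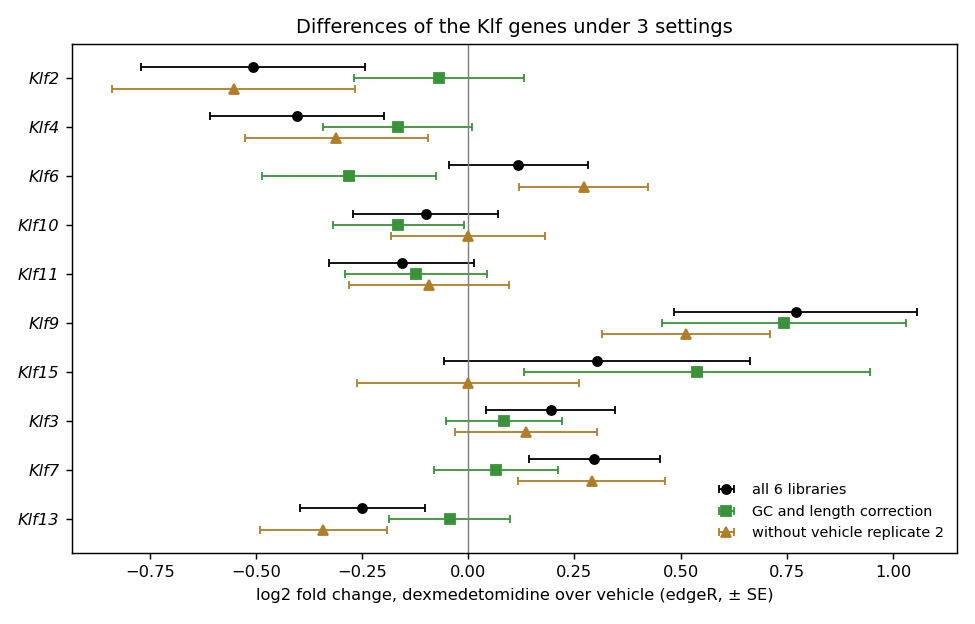
Log2 fold change of each Klf gene, dexmedetomidine over vehicle (x axis, ± SE), from edgeR with all 6 libraries (black circles), with the GC and length correction (green squares) and without vehicle replicate 2 (brown triangles). Klf9 stays above 0 in all 3 settings (0.77, 0.74 and 0.51), Klf2 moves to -0.069 with the correction, and Klf15 moves to -0.0012 without vehicle replicate 2.

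Levels of different members were compared per length, as TPM (transcripts per 1000000). Klf2 averaged 132 ± 50.2 TPM over the 6 libraries, Klf6 110.2 ± 15.9 TPM and Klf9 93.6 ± 32.2 TPM (SD, n = 6). Below them came Klf15 at 39.9 ± 17.2 TPM, Klf4 at 28.9 ± 10.03 TPM, Klf13 at 21.5 ± 5.42 TPM and Klf3 at 20.7 ± 2.96 TPM. The lowest were Klf7 at 9.05 ± 1.10 TPM, Klf10 at 7.97 ± 1.20 TPM and Klf11 at 6.96 ± 1.41 TPM. Of the neighbours in this order, 1 pair was apart, Klf3 and Klf7, with a lowest value of 16.6 TPM for Klf3 and a highest of 10.3 TPM for Klf7. Ranges over the libraries overlapped between the other neighbours. Read within each library, Klf9 lay above Klf15 in 6 of 6, and the remaining neighbours kept the order of the means in 3 to 5 of 6. After dexmedetomidine Klf9 averaged 109.8 ± 19.96 TPM, Klf6 106 ± 15.9 TPM and Klf2 101 ± 54.6 TPM (SD, n = 3 each). After vehicle Klf2 averaged 163 ± 19.4 TPM, Klf6 114 ± 18.3 TPM and Klf9 77.5 ± 37.7 TPM. Single dexmedetomidine libraries differed in their first place. It was held by Klf2 in replicate 1 (161 TPM), Klf6 in replicate 2 (98.4 TPM) and Klf9 in replicate 3 (120 TPM).

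**Figure D4:**
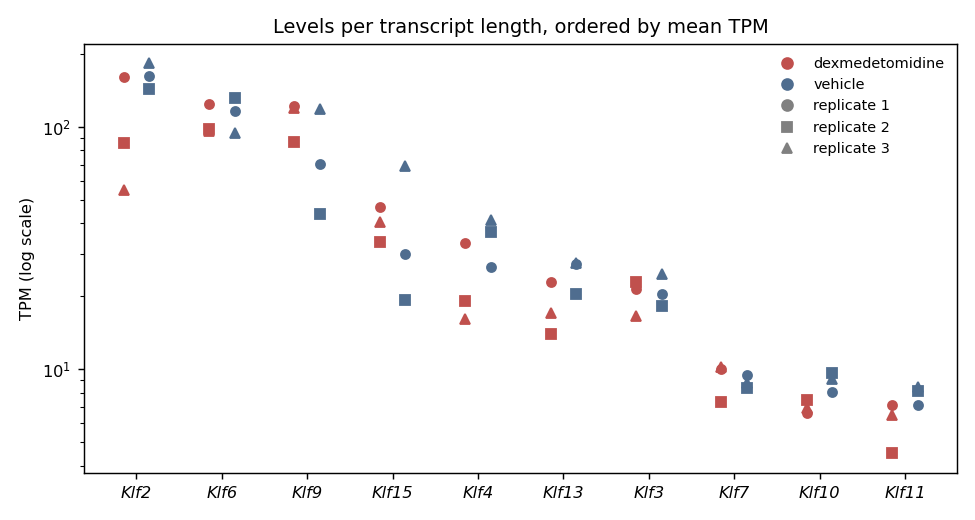
TPM of each Klf gene (log y axis) in the 3 dexmedetomidine libraries (red) and the 3 vehicle libraries (blue), with genes ordered by mean TPM. Klf2, Klf6 and Klf9 lie between 43.8 and 183 TPM, and Klf7, Klf10 and Klf11 between 4.50 and 10.3 TPM.

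Of 7 other Klf genes, 4 were tested, and edgeR and DESeq2 called 0, with 1 log2 fold change above and 3 below 0 and a median of -0.25. For 1 of these 4 DESeq2 gave no adjusted p. Klf12, a repressor, averaged 17.1 ± 3.49 CPM after dexmedetomidine and 14.6 ± 1.89 CPM after vehicle, and Klf16 6.53 ± 0.982 and 8.62 ± 2.18 CPM in the same order (SD, n = 3 each). Klf5, known from smooth muscle and epithelium, was at 0.481 ± 0.128 CPM after dexmedetomidine and 0.780 ± 0.596 CPM after vehicle. Klf1, Klf14 and Klf17 had too few reads to be tested. Of 9 genes of the related SP family 4 were tested, 3 above and 1 below 0 (median 0.50, or 0.11 with the correction). Of the 4, edgeR called 0 and DESeq2 1, Sp3, beside 9.43% of all genes in DESeq2. Sp3, a ubiquitous factor that competes for GC boxes, averaged 57.5 ± 7.29 CPM after dexmedetomidine and 31.3 ± 10.3 CPM after vehicle without overlap (log2 fold change 0.88, SE 0.24, edgeR adjusted p = 0.112), and was at 0.26 with the correction.

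Genes upstream of Klf2 and Klf4, those of the ERK5 and MEF2 pathway, gave 0 calls in edgeR among 9 tested. DESeq2, which called 9.43% of all genes, called 2 of these 9 (Mef2a and Map3k2). Of the 9, 3 were above and 6 below 0, with a median of -0.16, or 0.0056 with the correction. Mef2a, which activates both genes downstream of ERK5, was at 171, 164 and 204 CPM in dexmedetomidine replicates 1, 2 and 3, against 97.8, 61.9 and 124 CPM in the vehicle replicates. Its groups did not overlap (log2 fold change 0.92, SE 0.23, edgeR adjusted p = 0.109), and it was at 0.49 with the correction. Map3k2, a kinase above ERK5, had a log2 fold change of 0.77 (SE 0.21), which was 0.0056 with the correction, and Hdac5, a repressor of MEF2, had -0.48 (SE 0.17), which was -0.19 with the correction.

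Among 9 genes that KLF2 and KLF4 are known to raise, edgeR called 0 and DESeq2 1 (Nos3), beside 9.43% of all genes in DESeq2. Of these 9, 2 were above and 7 below 0, with a median of -0.15. Nos3, endothelial nitric oxide synthase, averaged 37.2 ± 8.13 CPM after dexmedetomidine and 59.0 ± 14.8 CPM after vehicle (SD, n = 3 each), with overlap (log2 fold change -0.66, SE 0.21, edgeR adjusted p = 0.134). Thbd, the anticoagulant receptor thrombomodulin, averaged 218 ± 10.6 CPM after dexmedetomidine and 319 ± 90.3 CPM after vehicle without overlap (-0.55, SE 0.18, edgeR adjusted p = 0.142), and Adamts4, a matrix protease, was at -0.54. Corrected values were -0.32 for Nos3, -0.42 for Thbd and -0.29 for Adamts4, and without vehicle replicate 2 they were -0.47, -0.30 and -0.21. Of 8 genes that KLF2 and KLF4 are known to lower, edgeR and DESeq2 called 0, with 3 above and 5 below 0 and a median of -0.11, which was 0.19 without vehicle replicate 2. Vcam1, a leukocyte adhesion molecule, had a log2 fold change of 0.47 (SE 0.17) and of -0.19 with the correction.

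For Klf10 and Klf11, 10 genes of TGF-beta signalling were tested, with 5 above and 5 below 0 and a median of 0.0024. Of these 10, edgeR called 0 and DESeq2 2 (Tgfbr1 and Tgfb2), beside 9.43% of all genes in DESeq2. The receptor gene Tgfbr1 averaged 38.8 ± 7.46 CPM after dexmedetomidine and 22.01 ± 2.33 CPM after vehicle (SD, n = 3 each) without overlap (log2 fold change 0.82, SE 0.16, edgeR adjusted p = 0.101), and was at 0.23 with the correction. Of the ligands, Tgfb2 was at 0.65 (SE 0.17) and Tgfb1 at -0.63 (SE 0.23), and at 0.57 and -0.45 with the correction.

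Around Klf9 and Klf15, edgeR called 0 of 8 glucocorticoid-induced genes. DESeq2 called 2 (Per1 and Cebpd), beside 9.43% of all genes. Of the 8, 3 were above and 5 below 0, with a median of -0.047. The list includes Nr3c1, the glucocorticoid receptor itself, at 0.42 (SE 0.16) and -0.028 with the correction. Per1, a clock repressor with a glucocorticoid response element, averaged 87.8 ± 7.08 CPM after dexmedetomidine and 121 ± 6.07 CPM after vehicle (SD, n = 3 each) without overlap (-0.46, SE 0.12, edgeR adjusted p = 0.109), and Cebpd, an acute-phase factor, was at -0.56 (SE 0.16). With the correction Per1 was at -0.11 and Cebpd at -0.35. Klf9 itself was at 0.77. Clock output genes gave 0 calls in edgeR and 1 in DESeq2 (Dbp) among 8 (3 above, 5 below 0, median -0.28), with Dbp at 36.8, 41.4 and 23.2 CPM in dexmedetomidine and 72.9, 69.3 and 77.8 CPM in vehicle replicates 1, 2 and 3. The log2 fold change of Dbp was -1.12 (SE 0.20), or -0.66 with the correction. Of the activators that bind E-boxes, Clock, Arntl and Npas2, edgeR called 0 of 3 and DESeq2 2 of 3 (Clock and Arntl). Their log2 fold changes were 1.08 (SE 0.19), 1.16 (SE 0.39) and 0.95 (SE 0.33), and with the correction 0.49, 1.20 and 1.07. Groups overlapped for Arntl, at 5.26 CPM in dexmedetomidine replicate 2 and 6.59 CPM in vehicle replicate 2, but not for Clock and Npas2.

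In genes tied to KLF15 in muscle and heart, edgeR called 0 of 10. DESeq2 called 1 of 10 (Slc27a1), beside 9.43% of all genes. Of the 10, 1 was above and 9 below 0, with a median of -0.29. Groups did not overlap for 5 of 10, all lower, against 27.6% of all genes in either direction and 12% lower. Slc27a1, a fatty acid transporter, averaged 106 ± 16.3 CPM after dexmedetomidine and 163 ± 14.4 CPM after vehicle (SD, n = 3 each; log2 fold change -0.62, SE 0.14, edgeR adjusted p = 0.101). Slc2a4, the insulin-regulated glucose transporter, was at -0.31 (SE 0.12) and Slc25a20, the carnitine carrier of mitochondria, at -0.32 (SE 0.12). The median was -0.075 with the correction, with Slc27a1 at -0.29, Slc2a4 at -0.064 and Slc25a20 at -0.27. Genes for partners of KLF proteins, the CtBP, SIN3 and histone deacetylase corepressors, were 4 above and 3 below 0, with 0 of 7 called by edgeR and 1, Hdac2, by DESeq2. Hdac2 was at 0.60 (SE 0.13), or 0.17 with the correction.

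**Figure D5:**
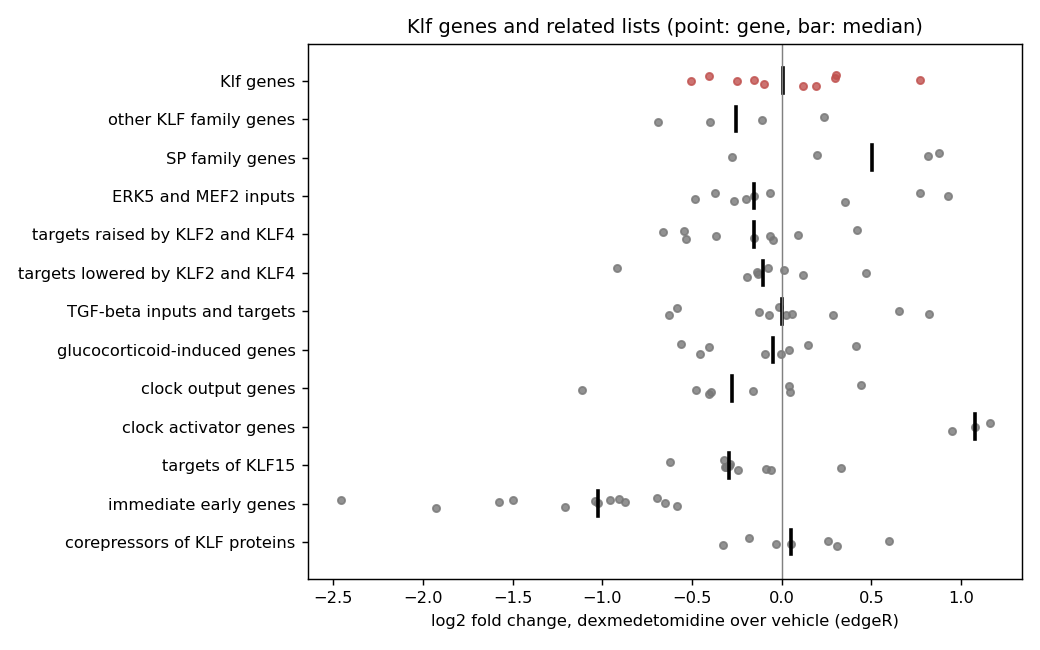
Log2 fold changes, dexmedetomidine over vehicle (x axis), of the 10 Klf genes (red) and of the tested genes of each related list (grey), with a bar at each median. The Klf genes lie on either side of 0 with a median of 0.0087, the immediate early genes lie below 0 with a median of -1.02, and 0 genes shown passed the edgeR threshold.

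Immediate early genes, the class that Klf2, Klf4, Klf6 and Klf10 join when cells are stimulated, lay below 0 for 13 of 13. Of these 13, edgeR called 0 and DESeq2 3, among them Egr3 and Dusp1 but not Junb, beside 9.43% of all genes in DESeq2. Fos had no adjusted p in DESeq2. The median of the 13 was -1.02, or -0.72 with the correction and -0.23 without vehicle replicate 2. Junb was at -1.21 (log2 fold change), Dusp1 at -0.70 and Egr3 at -1.58, and without that library they were at -0.62, -0.37 and -0.91. The median of the 10 Klf genes was 0.0087 in the same libraries, but that set also holds members not named as joining this class. Of those named, Klf2 was at -0.51, Klf4 at -0.40, Klf6 at 0.12 and Klf10 at -0.10 (log2 fold change). By mean log2 level, fibroblast markers were the marker list whose groups did not overlap, 1 of 9 lists, at 6.53 ± 0.035 log2 CPM after dexmedetomidine and 6.30 ± 0.070 log2 CPM after vehicle (SD, n = 3 each; 6 of 6 genes tested), and by summed CPM mural cell markers (1625 to 1911 CPM after dexmedetomidine, 1261 to 1424 CPM after vehicle, 7 of 7 genes tested) and the cardiomyocyte markers did not overlap either. Rgs5 was the largest part of the mural sum, at 905 to 1163 CPM after dexmedetomidine and 570 to 718 CPM after vehicle. Its log2 fold change was 0.66, or 0.13 with the correction. Of the 7 mural genes, 3 were above and 4 below 0, with a median of -0.15. The part of these marker lists in the Klf values was not tested.

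Profiles most like those of 4 members were found by the root mean square difference of log2 CPM, centred on each gene's mean, over the 6 libraries. Nearest to Klf9 were Ints6l (0.043), Ddx10 (0.054) and Usp16 (0.063), each lowest in vehicle replicate 2 and highest in dexmedetomidine replicate 3. Nearest to Klf15 were Zfp398 (0.097), Homez (0.11) and E230001N04Rik (0.12), and nearest to Klf4 were Sart1 (0.062), Mier2 (0.064) and Ccdc12 (0.082). Klf2 had Carmil3 (0.062), Slc8a2 (0.063) and Megf6 (0.086), each at under 4 CPM. Without vehicle replicate 2, 5 of these 12 genes remained among the nearest 3, and all of those for Klf2 did. With 14738 genes and 6 libraries, close profiles are a description only.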

How the data were processed

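Polyadenylated RNA from the heart apex was sequenced in 6 libraries. The values deposited are raw counts for each gene, with a length for every gene. Trim Galore, HTSeq and mouse build mm9 are named per the submitters' processing notes. The aligner, versions, annotation and strand setting were not given in the sources used here, so reads of overlapping genes and near-identical copies are uncertain. Alignments at more than 1 place were 28.05% to 39.5% of all reads, reads outside genes 2.33% to 3.63% and ambiguous reads 1.83% to 2.37%; these summary rows stayed out of library sizes and tests. Symbols matched 32897 of 37620 identifiers through GENCODE M21, whose longest transcript per gene gave the GC content.

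Genes were tested with edgeR 4.0.16 in R 4.3.3 (robust quasi-likelihood F test, filterByExpr, TMM), with Benjamini-Hochberg adjustment over 14738 genes and a threshold of 0.05. Log2 fold changes are dexmedetomidine minus vehicle. CPM values are counts scaled to 1000000 by TMM-scaled library sizes. TPM values were computed from the deposited counts and lengths and include mitochondrial transcripts. The GC and length correction removed each library's smooth trend (mgcv 1.9.3) by an offset, on 14329 genes. DESeq2 1.42.0 and limma 3.58.1 (voom with quality weights) were alternatives. The fits and the correction were run on simulated counts, with a straight-line GC trend put into the dexmedetomidine libraries. These counts held no library standing apart as vehicle replicate 2 did. They cannot show whether the correction also removes true group differences that follow GC content. Every pair of libraries differed by more than sampling noise (chi-square per degree of freedom 27.5 to 423). By this measure dexmedetomidine replicate 1 was nearer to vehicle replicates 3 and 1 (57.3 and 66.2) than to dexmedetomidine replicates 2 and 3 (104 and 128). The measure was taken on raw counts, where abundant genes weigh most. Log2 CPM gave another picture on the first principal component, the axis of largest spread between libraries (47.3% of variance). Dexmedetomidine replicates 1, 2 and 3 lay there at -17.6, -28.1 and -46.6, and vehicle replicates 1, 2 and 3 at 26.3, 69.8 and -3.67. Promoters were searched for 6 planned motifs and 1 added after the sequences were seen. The members and lists were chosen with earlier results of these data known. Named genes are the members, up to 3 genes of lowest p in the lists discussed, the 3 nearest profiles of Klf2, Klf4, Klf9 and Klf15, and Fos, Dbp and Hspa1a. The values of 1 gene that this rule names are not reported here.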

Additional observations from a re-analysis of the deposited data

How the results depend on the processing

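Over 15 alternatives for each of the 10 Klf genes, 139 of 150 values kept their direction and their side of the threshold, 6 changed sign and 5 passed. Sign changes were those of Klf6 with the GC and length correction (-0.28), with the replicate block and that correction (-0.24) and without vehicle replicate 3 (-0.046), of Klf10 in limma-voom (0.010) and without dexmedetomidine replicate 1 (0.033), and of Klf15 without vehicle replicate 2 (-0.0012). With 1 library left out Klf6 ranged from -0.046 to 0.27, Klf10 from -0.20 to 0.033 and Klf15 from -0.0012 to 0.89. Klf genes past the threshold numbered 0 in edgeR and 1, Klf9, with the replicate block (adjusted p = 0.0250, range over alternatives 0.0189 to 0.479, in a fit that called 4.32% of genes), in DESeq2 and in limma-voom; with 1 library left out they numbered 0 to 2. Klf genes without overlap numbered 1, but 0 with nuclear genes only, with a mean CPM of at least 5, with the GC and length correction and with the block and correction, where shares of all genes were 27.7%, 32.5%, 18.2% and 18.2%. With 1 library left out they numbered 2 to 4, where the share of all genes was 32.4% to 45.8%. All genes past the threshold numbered 0 in edgeR, 406 with no filter, 636 with the block, 72 with block and correction, 1247 in DESeq2, 2063 in limma-voom and 0 to 1251 with 1 library left out. The Klf median was -0.057 with the correction, -0.067 with block and correction and -0.095 to 0.069 with 1 library left out. The cause of these shifts was not tested. Deviations of same-numbered libraries correlated across genes at -0.082, 0.031 and 0.23 for numbers 1, 2 and 3, with mixed signs, and dexmedetomidine replicate 1 correlated best with vehicle replicate 2, so the numbers were not taken to pair the samples. Under the block no other Klf gene passed. RPKM in place of TPM and a prior count of 0.5 changed neither the order's 1 separated pair nor the 1 separated marker list. With 424 reads or more per member, the spread between libraries and not read number limits these comparisons.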
